A study of Homo sapiens with 6 samples.

Results

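The 9 enzyme genes of serine synthesis and folate-dependent one-carbon metabolism were examined for MYC binding in MIAPaCa2, an established human pancreatic ductal adenocarcinoma cell line. They are PHGDH, PSAT1, PSPH, SHMT1, SHMT2, MTHFD1, MTHFD1L, MTHFD2 and ALDH1L2, taken by name, and all 9 were found among the 20037 protein-coding genes of the annotation on the nuclear chromosomes. MYC ChIP-seq, which sequences the DNA fragments recovered with a MYC antibody, had been done after 48 hours in serum-free DMEM and a further 3 hours in one of 2 media. The first, called DMEM here, was fresh serum-free DMEM, and the second, called CM, was serum-free medium conditioned by primary cancer-associated fibroblasts. Each condition had 2 immunoprecipitated libraries, each with a peak list of its own. The 2 input libraries were not analysed here. Separate cultures for the paired libraries of a medium are not stated in the labels, and p-values then measure only the spread between these libraries, which may be technical. The peak lists carry no expression values, so the identity of the cell line was not checked against markers.

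In the pathway, PHGDH oxidises the glycolytic intermediate 3-phosphoglycerate, PSAT1 transfers an amino group to the product, and PSPH removes the phosphate to give serine. Serine hydroxymethyltransferases, SHMT1 in the cytosol and SHMT2 in mitochondria, split serine into glycine and a one-carbon unit carried by tetrahydrofolate. In mitochondria MTHFD2 and MTHFD1L turn this unit into formate, which leaves for the cytosol, where MTHFD1 returns it to folate for purine, thymidylate and methionine synthesis. ALDH1L2 is the mitochondrial enzyme that oxidises formyl-tetrahydrofolate to carbon dioxide. MYC binds DNA as a dimer with MAX, preferentially at the hexamer CACGTG (the E-box), and is known as an activator of several of these genes in tumour cells.

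The lists held 15304 and 12797 peaks in CM libraries 1 and 2, and 4657 and 7652 peaks in DMEM libraries 1 and 2. DMEM library 1 was thus the shortest list. Read depth is unknown, so each statement below is about peaks called at the authors' threshold. A gene had an end peak where a peak overlapped the 1000 bp on either side of one of its outermost annotated ends. Internal start sites further in do not count here, and bound or CM-only below refers to end peaks. The score is the authors' value for a peak, and its percentile gives the place of the peak within its own list. Because the lists differ in length, a percentile that differs between them does not show a change.

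Of the 9 genes, 6 carried an end peak in all 4 libraries: PSAT1, PSPH, SHMT2, MTHFD1, MTHFD1L and MTHFD2. SHMT1 had one in the 2 CM libraries but in no DMEM library, PHGDH in CM library 2 alone, and ALDH1L2 in none. Thus 7 of 9 were bound in both CM libraries (77.8%, against 39.1% of all protein-coding genes), and 6 of 9 in both DMEM libraries (66.7%, against 15.9%). The same 6 of 9 were bound in all 4 libraries, against 15.9% of all genes. Library by library, the count was 7 of 9 in CM library 1 (background 43.9%), 8 of 9 in CM library 2 (40.9%), and 6 of 9 in each of DMEM library 1 (16.8%) and DMEM library 2 (28.1%). Bound in CM only was 1 of 9, where the background was 11.0%. Without an end peak in any library was 1 of 9, where the background was 54.1%. With CM library 1 left out, PHGDH joined SHMT1 and 2 genes were CM-only. The 11.0% requires a peak in both CM libraries, and no background is given for this setting. With a minimum score of 50, or with lists of equal length (the top 4657 peaks by score in each), the number of CM-only genes was 0. The background for CM only was 11.5% at that score and 1.93% in lists of equal length. Peaks lying inside a gene and over 1000 bp from both of its ends were called in both CM libraries at 0 of 9, against 7.23% of all genes, and in both DMEM libraries at 0 of 9, against 2.64%. In a single library there was 1 such peak, at MTHFD1L in DMEM library 1.

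**Figure D1:**
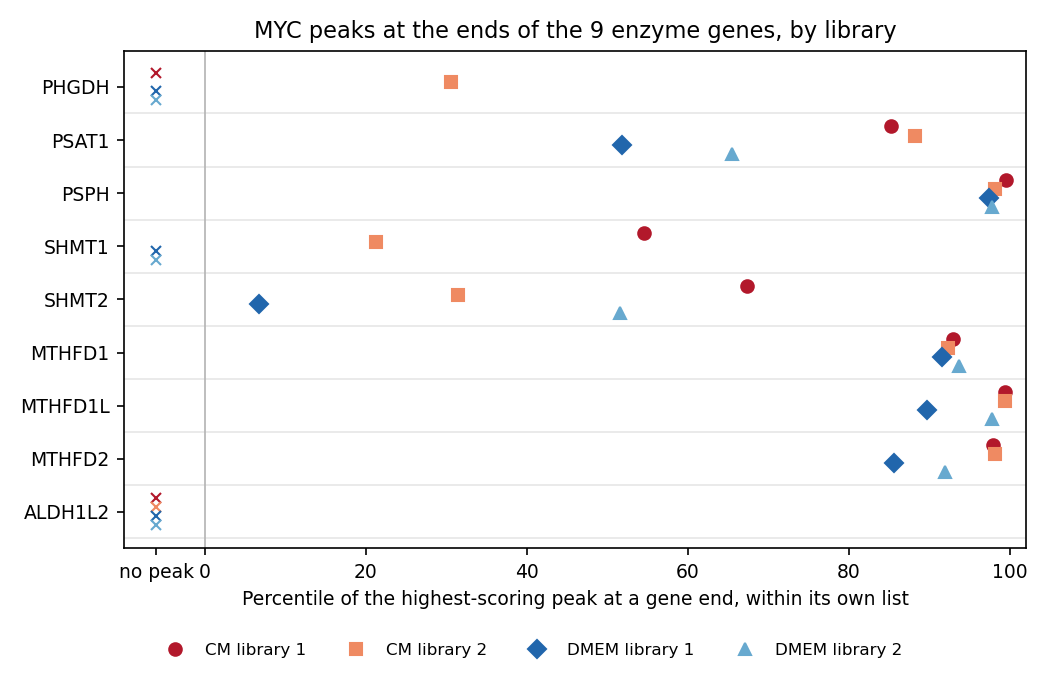
Percentile of the highest-scoring end peak within its own list (horizontal axis, 0 to 100) for each of the 9 genes (vertical axis). Symbols and colours stand for the 4 libraries and crosses at the left for no peak. PSPH, MTHFD1, MTHFD1L and MTHFD2 sit at 85.6 or above in all 4 libraries, while SHMT1, SHMT2 and PHGDH lie at 67.3 or below wherever they have a peak.

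The promoter sequences of the genes were read from RefSeq on GRCh38.p14, in windows from 250 bases before to 50 after each listed transcription start. Of the 9 genes, 6 genes matched this table, namely PHGDH, PSAT1, SHMT1, MTHFD1, MTHFD1L and MTHFD2, while PSPH, SHMT2 and ALDH1L2 did not. The windows shown are those of the 4 matched genes bound in all libraries, and that of PHGDH, whose start lay in no peak. Letters in capitals mark motif matches on either strand, and for MTHFD1L the first of 4 listed starts is shown.
MTHFD1, chr14:64388103-64388402, plus strand: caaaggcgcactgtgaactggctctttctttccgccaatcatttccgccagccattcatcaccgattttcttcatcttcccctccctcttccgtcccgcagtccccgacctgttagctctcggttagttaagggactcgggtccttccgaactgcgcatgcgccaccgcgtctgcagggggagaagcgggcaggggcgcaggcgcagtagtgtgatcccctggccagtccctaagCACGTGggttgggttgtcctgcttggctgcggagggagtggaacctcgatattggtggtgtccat
MTHFD1L, chr6:150866083-150866382, plus strand: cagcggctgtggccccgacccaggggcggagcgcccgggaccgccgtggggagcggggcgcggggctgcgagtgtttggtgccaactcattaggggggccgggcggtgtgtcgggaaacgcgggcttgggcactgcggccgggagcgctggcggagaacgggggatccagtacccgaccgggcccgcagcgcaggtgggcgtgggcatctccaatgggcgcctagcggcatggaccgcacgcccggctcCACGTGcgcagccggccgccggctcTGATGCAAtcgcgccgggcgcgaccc
MTHFD2, chr2:74198365-74198664, plus strand: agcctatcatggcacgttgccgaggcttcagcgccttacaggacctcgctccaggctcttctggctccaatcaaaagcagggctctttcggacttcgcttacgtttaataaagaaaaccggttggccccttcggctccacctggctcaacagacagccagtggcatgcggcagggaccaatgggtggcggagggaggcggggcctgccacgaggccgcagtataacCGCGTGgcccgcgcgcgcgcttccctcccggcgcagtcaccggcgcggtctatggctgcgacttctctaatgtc
PSAT1, chr9:78296875-78297174, plus strand: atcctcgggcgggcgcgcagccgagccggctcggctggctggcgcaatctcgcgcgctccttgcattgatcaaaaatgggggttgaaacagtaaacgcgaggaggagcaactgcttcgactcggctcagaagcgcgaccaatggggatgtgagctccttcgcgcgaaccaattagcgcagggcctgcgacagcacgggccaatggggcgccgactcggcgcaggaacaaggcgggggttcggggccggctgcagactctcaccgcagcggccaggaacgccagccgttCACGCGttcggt
PHGDH, chr1:119711684-119711983, plus strand: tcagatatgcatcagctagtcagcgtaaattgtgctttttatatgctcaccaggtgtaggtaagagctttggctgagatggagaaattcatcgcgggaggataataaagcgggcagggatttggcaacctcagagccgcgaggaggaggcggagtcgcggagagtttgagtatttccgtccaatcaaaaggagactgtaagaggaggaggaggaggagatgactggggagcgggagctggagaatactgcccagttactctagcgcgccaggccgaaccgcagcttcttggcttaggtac

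Both strands of the windows were searched for CACGTG, for the related hexamers CACGCG and CATGTG, and for TGATGNAA, the element recognised by ATF4 with C/EBP proteins. MTHFD1 holds CACGTG on chromosome 14 at 64388338 to 64388343, starting 15 bases before the start site. MTHFD1L holds CACGTG on chromosome 6 at 150866332 to 150866337, across its first listed start, and TGATGCAA follows at 150866357 to 150866364. Peaks of all 4 libraries lay over these 3 matches. At MTHFD2 the match is CACGCG on the opposite strand, read as CGCGTG in the window, 24 bases before the start. PSAT1 has CACGCG at base 39 after the start. Peaks of all 4 libraries covered these 2 matches as well. The window of the last of the 4 listed MTHFD1L starts held CATGTG, read as CACATG, at 151006763 to 151006768. No library had a peak over that match. The windows of PHGDH and SHMT1 held none of the 4 motifs. Among 22199 promoter windows of protein-coding genes, 8.34% held CACGTG, 14.3% CACGCG, 8.93% CATGTG and 2.69% TGATGNAA. These matches are letters in a window and not measured binding sites.

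By base composition the windows of all 6 matched genes were CpG-rich, meaning a GC content over 50% and a ratio of observed to expected CpG over 0.6. For MTHFD1L this holds for the first 3 of its 4 listed starts. Of the 22199 promoter windows of protein-coding genes, 59.8% were CpG-rich. By gene, 10813 of the 15843 with a listed window had a CpG-rich one. PHGDH had a GC content of 52.7% and a CpG ratio of 0.79, SHMT1 68.0% and 0.66, MTHFD1 59.7% and 0.75, MTHFD2 62.7% and 0.92, PSAT1 66.0% and 1.14, and MTHFD1L 76.0% and 0.97. Of the 10813 protein-coding genes with a CpG-rich window, 55.9% had an end peak in both CM libraries and 23.2% in both DMEM libraries. PHGDH and SHMT1, without a DMEM peak, thus share this property with the 4 bound genes.

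Of the serine synthesis genes, PHGDH, which encodes the first and committed enzyme, was called in the fewest libraries, 1 of 4. The gene lies on chromosome 1 at 119711934 to 119744215. CM library 2 had a peak of 397 bp at 119712476 to 119712872, inside the gene, beginning 542 bp from its start. Its score of 57 put it at percentile 30.6 of that list, and CM library 1, DMEM library 1 and DMEM library 2 had no peak there. PHGDH therefore differed between the 2 libraries of the same condition. With a window of 500 bp, no library had an end peak at PHGDH. The CM library 2 peak also lay within 1000 bp of the end of LOC105378937, a long noncoding RNA gene that stops 87 bases before PHGDH. The next peak outside the gene was 63319 bp away in CM library 1, near ZNF697, and 570468 to 571002 bp away in the other 3 libraries, at WARS2.

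PSAT1, the phosphoserine aminotransferase, was bound in all 4 libraries. The gene lies on chromosome 9 at 78297125 to 78330093, with its start at the low end. The CM peaks spanned 78296045 to 78298196 and 78296162 to 78298069, 2152 and 1908 bp wide, centred 4 and 10 bases before the start. DMEM library 2 had 1 peak of 939 bp, and DMEM library 1 had 2 peaks, of 268 and 809 bp, on either side of a gap. The highest-scoring peak stood at percentiles 85.2 and 88.2 in the CM lists and at 51.8 and 65.5 in the DMEM lists. All of the DMEM bases fell inside the peaks of both CM libraries. Peaks thus covered the PSAT1 start in every library, and the DMEM calls sat lower in shorter lists.

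PSPH, the phosphatase of the last step, had the highest percentiles of the 3 serine synthesis genes. Its gene lies on chromosome 7 at 56011064 to 56051444, and the peaks lay over the high end. Percentiles were 99.5 and 98.1 in CM and 97.4 and 97.8 in DMEM. The peak of CM library 1, at 56050219 to 56052728, was the 74th highest of its list. That of DMEM library 1 was number 123 of 4657. The same peaks reached CCT6A, a subunit gene of the cytosolic chaperonin, whose gene begins 320 bases beyond PSPH. The end windows of both genes were overlapped in all 4 libraries, so the files do not assign the peak to one of them.

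The serine hydroxymethyltransferases, cytosolic SHMT1 and mitochondrial SHMT2, had peaks at percentiles from 6.77 to 67.3 of their lists. SHMT1 lies on chromosome 17 at 18327873 to 18363550, on the minus strand. Its CM peaks were 347 bp wide in library 1 (score 91, percentile 54.5) and 931 bp in library 2 (score 46, percentile 21.3). The first lay wholly inside the gene, and the second covered the start. Neither DMEM library had a peak. Their nearest peaks lay outside the gene, at 12566 bp in library 1 and 4667 bp in library 2, at SMCR8 in both and at TOP3A too in the first. SHMT1 was the only one of the 9 genes called in both CM libraries and in no DMEM library.

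SHMT2 lies on chromosome 12 at 57229711 to 57234935 and had a peak near its low end in each list. The CM peaks were 1113 and 759 bp wide, at percentiles 67.3 and 31.4. The peak of DMEM library 1, 57229718 to 57229962, had a score of 27 and a percentile of 6.77. That of DMEM library 2, 57230114 to 57230455, had a score of 75 and a percentile of 51.5. The 2 DMEM peaks did not overlap each other, so no base of SHMT2 was in a peak of all 4 libraries, and the authors' common DMEM list had no interval there. With a minimum score of 50, the peak of DMEM library 1 was lost. In lists of equal length SHMT2 kept its peaks in both DMEM libraries and lost those in CM, which ranked 4999 and 8701. Of all protein-coding genes, 0.369% were bound in DMEM only in those lists. DMEM library 1 is not shortened by that limit.

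The folate enzyme genes MTHFD1, MTHFD1L and MTHFD2 all stood high in the lists, with every highest-scoring end peak at percentile 85.6 or above. MTHFD1, encoding the trifunctional cytosolic enzyme, lies on chromosome 14 at 64388353 to 64460025. Its percentiles were 92.9 and 92.3 in CM and 91.5 and 93.6 in DMEM, which places it alike in all 4 lists. The peaks were 2262 and 1825 bp wide in CM and 1097 and 1776 bp in DMEM. A stretch of 1097 bp around the start, from 64387882 to 64388978, lay in the peaks of all 4 libraries and holds the CACGTG printed above.

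MTHFD1L, the mitochondrial formyl-tetrahydrofolate synthetase gene, lies on chromosome 6 at 150865702 to 151101887. The first listed start is 631 bp inside the outermost annotated end, and the CM peaks were centred 86 and 44 bases before it. They spanned 2256 and 1950 bp at percentiles of 99.3 in both libraries, as numbers 112 and 96 of their lists. DMEM library 2 had 1 peak of 1303 bp at percentile 97.7. DMEM library 1 had 3 separate peaks, of 253, 820 and 398 bp, within the span of both CM peaks. The middle one, at percentile 89.7, covered the CACGTG and TGATGCAA matches. The start listed 141306 bp inside the gene lay in no peak.

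MTHFD2, the mitochondrial dehydrogenase and cyclohydrolase gene, lies on chromosome 2 at 74198615 to 74217565. Its peak widths were 2915 and 2132 bp in CM, the first the widest at any of the 9 genes, against 706 and 880 bp in DMEM. Percentiles were 97.9 and 98.1 in CM and 85.6 and 91.9 in DMEM. The DMEM peaks lay wholly inside the CM peaks, and 426 bp across the start, from 74198299 to 74198724, were common to all 4. ALDH1L2, on chromosome 12 at 105019790 to 105084458, had no peak at its ends or inside in any list. The nearest peaks outside it were at WASHC4, 22625 to 23111 bp away in both CM libraries and DMEM library 2, and at SLC41A2, 60755 bp away, in DMEM library 1. The 4 genes of mitochondrial folate metabolism, SHMT2, MTHFD2, MTHFD1L and ALDH1L2, therefore ranged from percentiles of 99.3 to no peak at all.

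**Figure D2:**
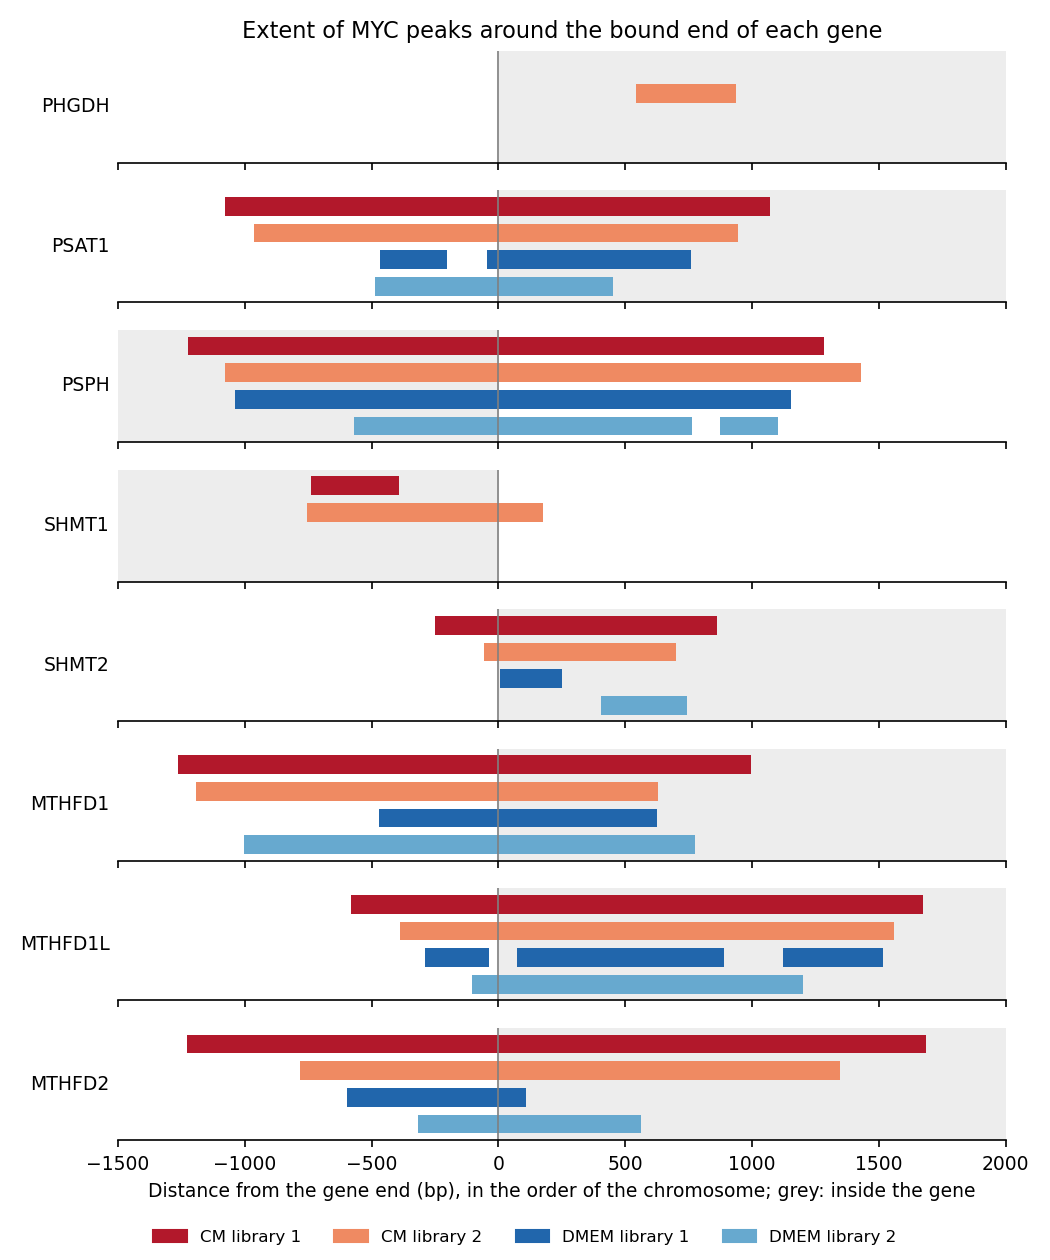
Extent of every peak at the 8 genes that had one, as bars by library, along the distance in bp from the bound gene end (0, vertical line; grey marks the inside of the gene). At the 6 genes bound in all 4 libraries the summed length of the bars is greater in both CM libraries than in either DMEM library, and DMEM library 1 is broken into 2 pieces at PSAT1 and 3 at MTHFD1L.

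More bases lay in peaks after CM at most of the genes, as they did at most genes of the genome. The measure was the number of bases in peaks over the gene and 1000 bp on each side. At MTHFD2 it was 2687 and 2132 bp in CM and 706 and 880 bp in DMEM, a mean of 2410 ± 392 (SD, n = 2) against 793 ± 123, or 3.04 times as many. At PSAT1 it was 2072 and 1908 bp against 1077 and 939 bp, 1.97 times as many. At MTHFD1L the values were 2256 and 1950 bp in CM and 1471 and 1303 bp in DMEM, a ratio of 1.52. The groups did not overlap at these genes.

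SHMT2 had 1113 and 759 bp in CM and 245 and 342 bp in DMEM, a ratio of 3.19, but in lists of equal length the direction turned, with 0 bp in both CM libraries against 245 and 342 bp in DMEM. PSPH had 2226 and 2080 bp in CM and 2041 and 1463 bp in DMEM, a ratio of 1.23, so that CM library 2 and DMEM library 1 were only 1.02 times apart. SHMT1 had 347 and 931 bp in CM and 0 in both DMEM libraries. At MTHFD1 the groups overlapped, with 1998 and 1631 bp in CM against 1097 and 1774 bp in DMEM, a ratio of 1.26. This overlap comes from the limit of 1000 bp on each side, which cuts the CM peaks: by whole peak width the CM values of MTHFD1, 2262 and 1825 bp, were both above the DMEM values, 1097 and 1776 bp.

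Of the 8 genes with any peak, 6 had higher values in both CM libraries than in both DMEM libraries, against 81.7% of the 10059 protein-coding genes with a peak, so these 6 of 8 are close to the background. None of the 8 had lower values in both CM libraries (0.0497% of genes did). In lists of equal length 4 genes were higher in both CM libraries and SHMT2 was lower in both. No share of all genes is given for that comparison. For each of the 6, the exact permutation test (two-sided) gave p = 0.333, below which 2 libraries against 2 cannot go, and 0.444 after Benjamini-Hochberg adjustment over 8 genes. The exact permutation p was 0.667 for MTHFD1 and 1.0 for PHGDH. No difference between the conditions could therefore pass the 0.05 threshold. Over the 3180 protein-coding genes bound in all 4 libraries, the ratio of CM to DMEM bases had a median of 2.11 and quartiles of 1.66 and 2.86. MTHFD1L, PSPH and MTHFD1 were below the lower quartile, PSAT1 was between the quartiles, and MTHFD2 and SHMT2 were above the upper one.

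**Figure D3:**
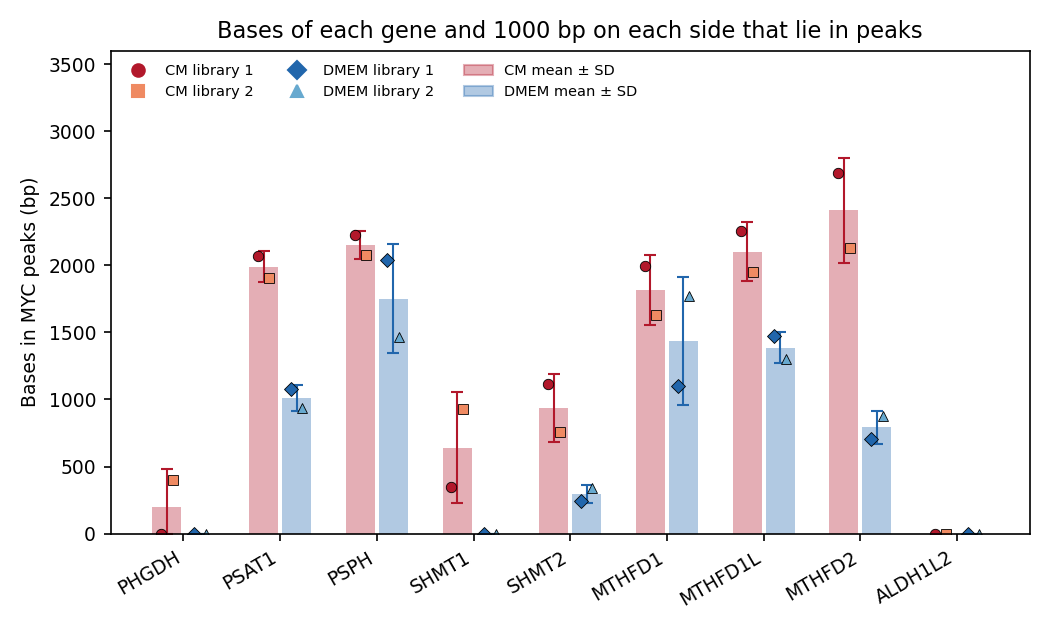
Bases in MYC peaks (bp, vertical axis) over each gene and 1000 bp on each side. Symbols are the 4 libraries and bars with whiskers the mean ± SD of the 2 libraries of a condition, with the whisker of PHGDH cut at 0. CM values lie above both DMEM values at 6 genes, by the widest margin at MTHFD2, and overlap them at MTHFD1.

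For each of the 6 genes bound in all libraries, the protein-coding gene most alike in its 4 percentiles was sought among 3179 others. It was the one that shared no peak with the gene and had the smallest largest-difference over the 4 lists. For PSPH it was LTV1, within 0.633 percentile points, for MTHFD1 LOC124904791, within 0.934, and for MTHFD2 KCNN1, within 1.18. For MTHFD1L it was FUCA2, within 1.33, for PSAT1 ZHX3, within 3.58, and for SHMT2 RSPH14, within 6.67. With 4 values per gene and that many candidates, close matches are a description only.

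Another 50 genes around these enzymes were counted in 6 lists. Of them 26 (52.0%) had an end peak in both CM libraries and 12 (24.0%) in both DMEM libraries, against 39.1% and 15.9% of all protein-coding genes. With lists of equal length the counts were 13 and 12, where the background was 18.0% and 13.9%. The other folate enzymes had 8 of 11 genes bound in CM (72.7%, background 39.1%) and 3 in DMEM (27.3%, background 15.9%). ATIC and GART, enzymes of purine synthesis that take up formyl groups from folate, were bound in all 4 libraries. Their percentiles were 99.3, 99.6, 97.3 and 98.6 for ATIC and 97.0, 97.7, 92.0 and 92.9 for GART, in the order CM library 1, CM library 2, DMEM library 1, DMEM library 2. The GART peaks also lay at the end of SON, and the ATIC peaks at that of LOC124907975. DHFR2, with peaks also at NSUN3, and MTFMT, which formylates the mitochondrial initiator tRNA, were CM-only. The paralogues MTHFD2L and ALDH1L1, examples chosen after their values were seen, had no end peak in any library. Peaks inside MTHFD2L covered 1789 and 1105 bp in CM libraries 1 and 2 and 270 bp in DMEM library 2, and ALDH1L1 had 0 bp in all 4 libraries.

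Transport and retention of folate and serine had 7 of 11 genes bound in CM (63.6%, background 39.1%) and 4 in DMEM (36.4%, background 15.9%). SLC19A1, an example chosen after its values were seen, had no end peak in any library. Peaks inside it covered 5379, 3903, 4090 and 3110 bp in CM libraries 1 and 2 and DMEM libraries 1 and 2. FPGS, which adds the glutamate tail that keeps folate in cells, was at percentiles of 99.1, 98.7, 86.0 and 96.1. SFXN2, with peaks also at ARL3, and the folate transporter gene SLC46A1 were bound in all 4 libraries too, at mean percentiles of 85.9 and 85.4. SFXN1, the mitochondrial serine carrier, was CM-only at percentiles of 87.1 and 74.5, as were SLC1A4 (62.0 and 49.4) and GGH (20.5 and 41.7). In the glycine cleavage system, GCSH was bound in all 4 libraries and DLD in CM only, while the other 2 of its 4 genes, GLDC and AMT, had no end peak. GLDC had 1024 and 268 bp in peaks inside the gene in CM libraries 1 and 2.

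The methionine cycle and transsulfuration had 5 of 12 genes bound in CM and 2 in DMEM, close to the background in both. These 2 were MAT2A, which makes S-adenosylmethionine, at percentiles of 99.0, 99.2, 97.7 and 97.0 with the noncoding gene PARTICL at the same peaks, and MTR, the methionine synthase, at 94.5, 97.1, 85.6 and 92.8. By end peaks MAT2B and AHCYL1 were CM-only. The end peaks of MAT2B stood at percentiles of 81.1 and 1.33 in the 2 CM lists, and DMEM libraries 1 and 2 had 916 and 851 bp in peaks inside this gene. AHCY, an example chosen after its values were seen, had no end peak but 1817, 1658, 1544 and 1187 bp in peaks inside the gene in CM libraries 1 and 2 and DMEM libraries 1 and 2. MTRR, chosen in the same way, had no end peak either. Peaks inside it covered 2325 and 1681 bp in CM libraries 1 and 2 and 644 bp in DMEM library 2. Other serine and glycine metabolism had 2 of 10 genes bound in CM and 0 in DMEM. Both known activators of serine synthesis genes in the list were bound in all 4 libraries, where the background was 15.9%. ATF4 stood at a mean percentile of 94.4 and NFE2L2 at 72.0.

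**Figure D4:**
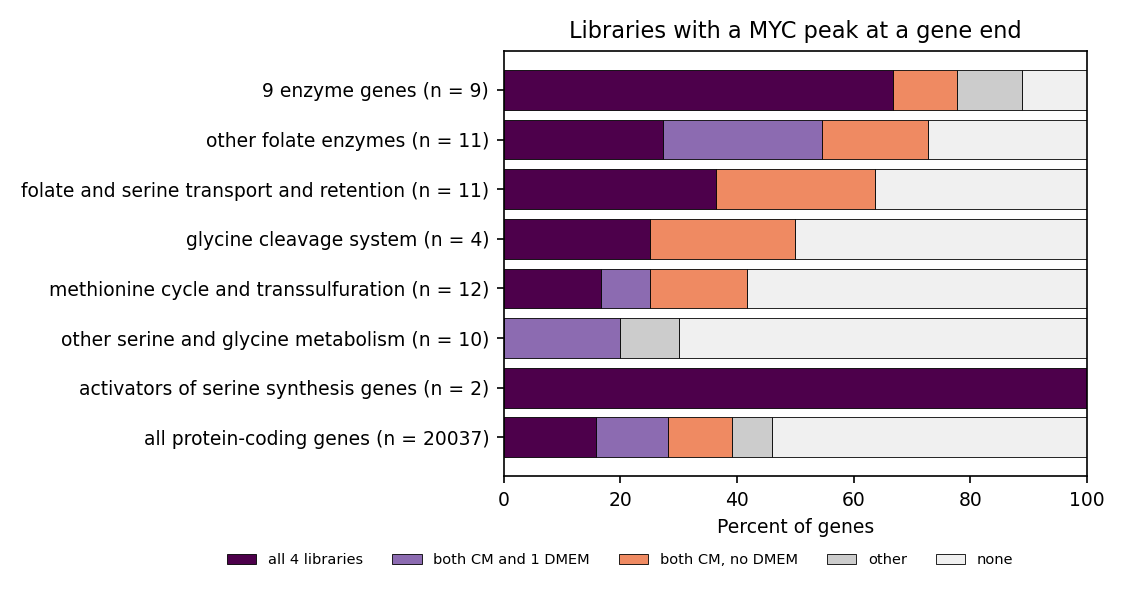
Share of genes (percent, horizontal axis) by the libraries with an end peak, for the 9 enzyme genes, 6 lists of related genes and all 20037 protein-coding genes, with n beside each bar. The 9 enzyme genes have 66.7% bound in all 4 libraries, against 15.9% of all protein-coding genes, while other serine and glycine metabolism has 0%.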

How the data were processed

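MYC ChIP-seq peak lists of 4 libraries were used, 2 per condition. The submitters' processing notes name MACS2 2.1.1.20160309, Picard 2.9.0, SAMtools 1.3.1, Bowtie2 2.3.4 and Trim Galore 0.4.3, with GRCh38. How each was set, and which control served each list, is not given in the sources used here. Each deposited list gives positions and the authors' whole-number score per peak, of at least 13, with no read counts. A longer list can reflect depth or immunoprecipitation yield, and no scaling between libraries was possible. In the deposited common lists for CM and DMEM the score was the mean of both libraries in all 9901 and 3380 intervals.

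Gene bounds came from RefSeq (GRCh38.p14), without exons. Strand and start sites came from the promoter table. Overlaps, ranks and exact permutation tests over 6 relabellings were computed in Python 3.11.15 with pandas 2.3.3 and numpy 2.4.6, and peak placement was tested on simulated data. No set test was made.

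The 9 genes, the 6 lists and the rules were chosen with earlier results of these data known. Named genes are the 9, the genes sharing their peaks, the most alike gene of each, and up to 3 bound and 3 CM-only genes per list with the highest mean percentile, apart from 1 item that is not reported here. Alternatives changed the window, the peak placement, the minimum score, the list length, the gene end used, the lists and the libraries.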

Additional observations from a re-analysis of the deposited data

How the results depend on the processing

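Of 71 counts of genes recomputed under alternative settings, 66 stayed within 1.5 times the reported value. The number of CM-only enzyme genes moved most: it was 0 with a minimum score of 50, 0 with lists of equal length, 2 with the authors' common lists (SHMT1 and SHMT2), and 1 to 2 when each library was left out in turn. Genes of the 6 related lists bound in CM numbered 13 in place of 26 with lists of equal length, and 12 to 18 of them were bound in DMEM when each library was left out, the 18 being without DMEM library 1. The number of enzyme genes bound in all 4 libraries was 5 with a minimum score of 50 (background 11.0%), with lists of equal length (12.3%), with the common lists, and when 1 base had to be common to all 4, the gene lost being SHMT2 each time. The use of listed starts alone covered 6 genes, of which 4 were bound in all libraries. The common base, the rule that 1 library is enough (8 genes in CM, 6 in DMEM) and whole peak widths (7 genes higher in CM) were chosen after seeing the data. No share of all genes is given for these rules, for listed starts alone, for the common lists or for libraries left out.

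CM and DMEM libraries share replicate numbers. Deviations of same-numbered libraries from their condition means correlated by 0.06 over 10059 genes. With 2 libraries per condition, crossed numbers give -0.06 by construction. Whether same-numbered libraries share a batch was not tested. With the replicate number as a block, 6 genes had more bases in peaks in CM in both pairs and 1 was CM-only, as without the block. With the pairs crossed, 7 genes had more bases in peaks in CM in both pairs. Without read counts, a missing peak cannot be told from binding under the threshold.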

Other observations

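Across the genome, a CACGTG in the promoter window went with more frequent MYC peaks in both media. Of the 1727 protein-coding genes with CACGTG in a listed window, as in MTHFD1 and MTHFD1L, 31.1% had an end peak in both DMEM libraries and 55.8% in both CM libraries. Of the 14116 genes with a listed window and no CACGTG, as in PSAT1, MTHFD2, SHMT1 and PHGDH, these shares were 15.2% and 39.8%. CM-only genes made up 9.67% of the genes with the hexamer and 11.8% of those without. These shares are descriptions of the 4 libraries with no test, and base composition was not held constant between the gene groups.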
